A study of Rattus norvegicus with 10 samples.

Results

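The 8 genes described here are Hmgcs1, Idi1, Fdps, Fdft1, Sqle and Dhcr7, which encode enzymes of cholesterol synthesis, and Srebf2 and Insig1, which encode regulators of that synthesis. They were taken by symbol from the 18025 genes in the deposited table, all 8 were found, and all 8 were among the 14542 genes tested. No receptor for cholesterol uptake is among the 8, so uptake genes are given from a list of their own. Messenger RNA was measured in 10 heart libraries of wild-type (wt) Sprague-Dawley rat fetuses at embryonic day 19.5, of which 5 came from control pregnancies (CON) and 5 from hyperglycemic pregnancies (HG). The dams of both groups were 3 months old. The study's methods say that normal females were mated and then assigned to a group, while its introduction places the hyperglycemia before pregnancy. HG dams were given streptozotocin (STZ), a compound toxic to the insulin-producing beta cells, in citric acid buffer on 3 days in a row, and their non-fasting glucose exceeded 16 mM when checked 7 days later. CON dams were given the buffer without STZ. The labels do not say which fetuses shared a dam, and the study's methods speak of pooled RNA although values differ between the libraries, so p-values measure the spread between these libraries, which may be technical. The labels and methods speak of heart tissue, but a legend of the study speaks of isolated cardiomyocytes for the sequencing, and which of them the libraries hold was not settled by these sources. Maternal hyperglycemia, STZ and their effect on the dam cannot be told apart in this design.

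Cholesterol is built from acetyl-CoA through mevalonate and the isoprenoids to squalene, and squalene is closed into a sterol ring and trimmed to cholesterol. When the membrane of the endoplasmic reticulum is rich in sterol, INSIG proteins hold the SCAP-SREBP-2 complex there, and when sterol is scarce SREBP-2 moves to the Golgi, is cut and activates the synthesis genes, its own gene Srebf2 and Insig1. A growing fetus makes much of its own cholesterol, which its dividing cells need for membranes.

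The promoters of 6 of the 8 genes were found in a RefSeq table of rat promoters on the GRCr8 build, while the submitters' notes name mRatBN7.2 for the expression values. Sqle and Fdft1 were not matched. Windows of 250 bases before and 50 bases after the start of each gene were searched on both strands for 3 motifs: TCACNCCAC, the core of a sterol regulatory element, CCAAT, the letters of an NF-Y site, and GGGCGG, the letters of an Sp1 site. NF-Y and Sp1 are the general factors that SREBP-2 is known to work with. The sterol element letters were in 0 of 6 windows and in 1.12% of all 33469 promoters in the table. CCAAT was in 5 of 6 windows, all but that of Dhcr7, and in 37.5% of all promoters. GGGCGG was in 5 of 6 windows and in 33.1% of all promoters, or 57.6% of the promoters of tested genes. A match is a description of letters and not of binding, and no match says only that those letters are not in this window. The 250 upstream bases of 4 genes are printed to show where the CCAAT letters fall, which are in capitals on either strand (CCAAT or ATTGG). They are Hmgcs1 (chr2:53382054-53382303, plus strand), Fdps (chr2:176804817-176805066, minus strand), Srebf2 (chr7:115543057-115543306, plus strand) and Insig1 (chr4:8057770-8058019, minus strand).
Hmgcs1: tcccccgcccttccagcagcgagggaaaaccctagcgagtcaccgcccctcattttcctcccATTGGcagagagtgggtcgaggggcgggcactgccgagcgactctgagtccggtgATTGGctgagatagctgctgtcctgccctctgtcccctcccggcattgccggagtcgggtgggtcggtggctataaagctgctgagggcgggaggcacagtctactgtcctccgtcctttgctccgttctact
Fdps: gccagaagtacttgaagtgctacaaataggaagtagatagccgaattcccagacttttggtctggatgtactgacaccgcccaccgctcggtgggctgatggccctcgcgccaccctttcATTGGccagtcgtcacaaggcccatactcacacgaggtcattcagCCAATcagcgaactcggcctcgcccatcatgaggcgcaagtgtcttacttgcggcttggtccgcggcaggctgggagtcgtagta
Srebf2: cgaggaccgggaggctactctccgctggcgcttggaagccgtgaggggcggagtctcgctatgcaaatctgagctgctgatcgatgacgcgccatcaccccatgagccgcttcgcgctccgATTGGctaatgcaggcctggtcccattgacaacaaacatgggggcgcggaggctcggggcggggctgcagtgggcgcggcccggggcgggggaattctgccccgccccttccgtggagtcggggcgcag
Insig1: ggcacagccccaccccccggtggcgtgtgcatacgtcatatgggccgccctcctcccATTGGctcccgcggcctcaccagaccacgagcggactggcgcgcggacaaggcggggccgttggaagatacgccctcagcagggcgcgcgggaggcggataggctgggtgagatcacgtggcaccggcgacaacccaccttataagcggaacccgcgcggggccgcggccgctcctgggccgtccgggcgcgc
Hmgcs1 and Fdps each held 2 such sites in this stretch, and Srebf2 and Insig1 each held 1.

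Levels are given as FPKM, the number of sequenced fragments scaled to transcript length and to library size. Differences are log2 fold changes of FPKM + 0.1, HG minus CON, from limma, and a gene was called at a Benjamini-Hochberg adjusted p under 0.05 over all genes tested. Reads on genes, recovered from the steps of the FPKM values, ranged from 17639895 to 18240006 in CON and from 16672876 to 19109844 in HG, and did not differ in an exact permutation test (two-sided p = 0.770, n = 5 per group). Between 264 reads (Dhcr7) and 3106 reads (Hmgcs1) stood behind each member value. Libraries of the same group correlated over genes at r of 0.988 to 0.992 and libraries of different groups at 0.977 to 0.984. Cardiomyocyte markers were high in every library, with Actc1, the cardiac actin, at 8395 to 11390 FPKM.

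All 8 genes rose in HG hearts. The increase ranged from 1.15-fold for Srebf2 to 1.47-fold for Fdft1, and none reached the 2-fold change that a differentially expressed gene (DEG) of this study needs. Among all genes tested 28.4% were called higher and 11.8% lower, and 1.94% reached the DEG thresholds in the limma fit. The study found its own DEGs with another method, DESeq, so this share is not the study's. The median log2 fold change of the 8 genes was 0.39, against 0.09 for all genes tested, whose 5% and 95% points were -0.50 and 0.58. In 5 of the 8 genes (Sqle, Fdft1, Fdps, Insig1 and Dhcr7) every HG library was above every CON library, which held for 19.3% of all genes tested, and the reverse order held for 0 of the 8 and for 8.12% of all genes. The 8 genes were chosen with earlier results of these data known, so these shares and medians describe them and are not a test. In bulk RNA, more cells of a type and more RNA per cell cannot be told apart.

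**Figure D1:**
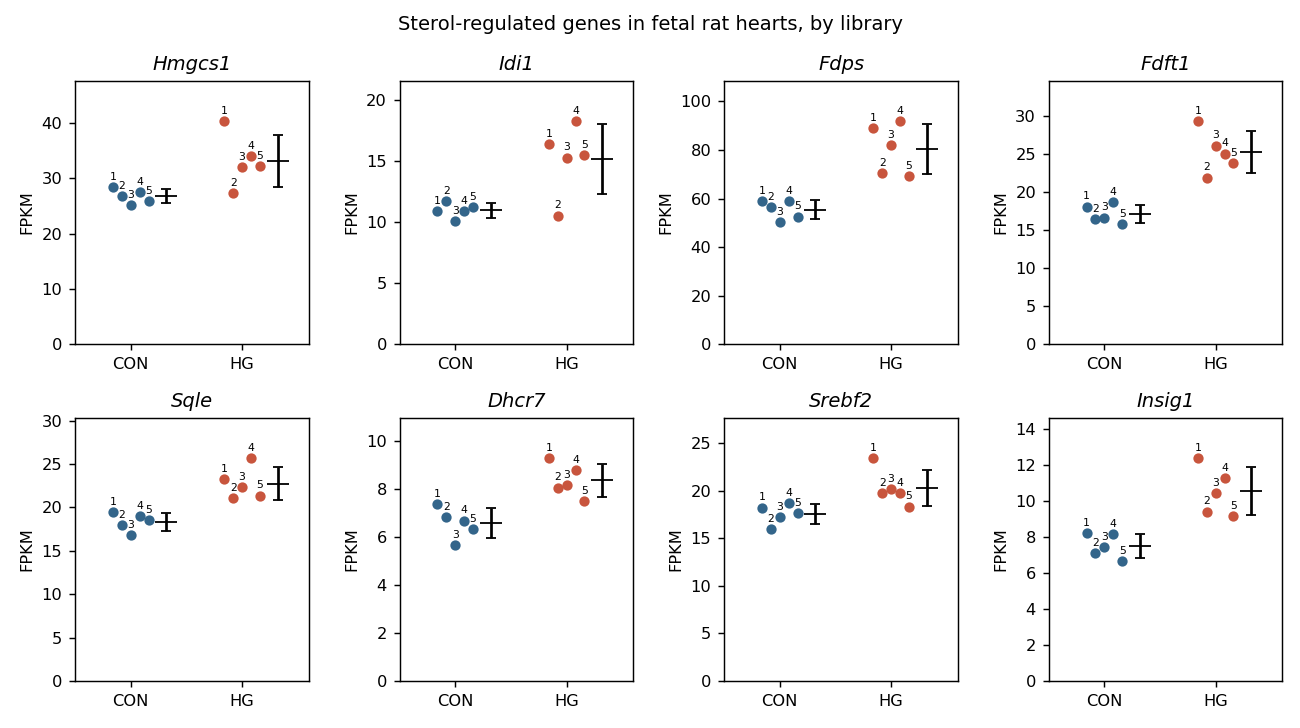
Level of each of the 8 genes (y axis, FPKM, starting at 0) in the 5 CON and 5 HG libraries (points, numbered by replicate), with the mean and SD of each group as a bar. HG points lie above all CON points for Fdps, Fdft1, Sqle, Dhcr7 and Insig1, while HG replicate 2 falls among the CON points for Hmgcs1 and Idi1 and HG replicate 5 does so for Srebf2.

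Hmgcs1 encodes HMG-CoA synthase 1, which builds HMG-CoA at the start of the mevalonate pathway. In CON replicates 1 to 5 it was at 28.4, 26.8, 25.1, 27.4 and 25.8 FPKM, and in HG replicates 1 to 5 at 40.3, 27.3, 32.1, 34.0 and 32.2 FPKM. HG replicate 1 stood highest, HG replicate 2 lay within the CON range, and the other HG libraries were above every CON library. The mean went from 26.7 ± 1.29 to 33.2 ± 4.70 FPKM (SD, n = 5), a log2 fold change of 0.30 (SE 0.0819, limma adjusted p = 0.0113). With each library divided by a median-of-ratios size factor the difference was 0.21 and was no longer called (limma adjusted p = 0.0745).

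Idi1 encodes isopentenyl diphosphate isomerase, which sets up the isoprenoid building blocks for chain growth. Its CON values were 10.9, 11.8, 10.1, 10.9 and 11.2 FPKM and its HG values 16.4, 10.5, 15.3, 18.3 and 15.5 FPKM. HG replicate 2 was inside the CON range and the other HG libraries were well above it, so that the HG group was spread the most of the 8 genes for its mean. Idi1 rose by 0.45 on the log2 scale (SE 0.116, limma adjusted p = 0.00933), from 11.0 ± 0.604 to 15.2 ± 2.87 FPKM (SD, n = 5).

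Fdps encodes farnesyl diphosphate synthase, whose product feeds sterols and also ubiquinone, dolichol and protein prenylation. It was the most abundant of the 8 genes, with 58.9, 56.5, 50.2, 58.8 and 52.6 FPKM in CON and 88.9, 70.4, 82.1, 91.9 and 69.2 FPKM in HG. The groups did not overlap, and HG replicates 2 and 5 were the lowest of their group. The log2 fold change was 0.53 (SE 0.0815, limma adjusted p = 0.000341), with means of 55.4 ± 3.87 and 80.5 ± 10.4 FPKM (SD, n = 5).

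Fdft1 encodes squalene synthase, the first enzyme committed to sterols. It was at 18.0, 16.4, 16.6, 18.6 and 15.7 FPKM in CON and at 29.3, 21.8, 26.1, 25.0 and 23.8 FPKM in HG. No value of either group fell in the range of the other. Fdft1 had the largest difference of the 8 genes, 0.55 on the log2 scale (SE 0.0735, 95% interval 0.39 to 0.71, limma adjusted p = 0.000128), and its mean went from 17.1 ± 1.20 to 25.2 ± 2.76 FPKM (SD, n = 5).

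Sqle encodes squalene epoxidase, an oxygen-dependent step that limits flux into sterols. Its values were 19.5, 17.9, 16.8, 19.0 and 18.6 FPKM in CON and 23.2, 21.1, 22.3, 25.7 and 21.4 FPKM in HG. The lowest HG library was above the highest CON library, by less than the SD of the HG group (1.86 FPKM). Sqle rose by 0.31 on the log2 scale (SE 0.0595, limma adjusted p = 0.00158), from 18.3 ± 1.04 to 22.7 ± 1.86 FPKM (SD, n = 5).

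Dhcr7 encodes 7-dehydrocholesterol reductase, which makes cholesterol in the last step of a branch of the pathway. It was the least abundant, with 7.40, 6.85, 5.68, 6.69 and 6.35 FPKM in CON and 9.31, 8.07, 8.16, 8.81 and 7.51 FPKM in HG. The groups did not overlap, but HG replicate 5 and CON replicate 1 were close. Dhcr7 differed by 0.34 on the log2 scale (SE 0.0777, limma adjusted p = 0.00422), and its means were 6.59 ± 0.635 and 8.37 ± 0.699 FPKM (SD, n = 5).

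Srebf2 encodes SREBP-2, the transcription factor that drives the enzymes above. Its values were 18.2, 16.0, 17.2, 18.7 and 17.7 FPKM in CON and 23.5, 19.8, 20.2, 19.8 and 18.3 FPKM in HG. HG replicate 1 was highest, HG replicate 5 lay within the CON range, and the other 3 HG libraries were just above it. Srebf2 had the smallest difference of the 8 genes, 0.21 on the log2 scale (SE 0.0644, limma adjusted p = 0.0235), from 17.6 ± 1.05 to 20.3 ± 1.90 FPKM (SD, n = 5). Its call was lost with median-of-ratios factors (0.11, limma adjusted p = 0.222), with quantile normalization (0.13, limma adjusted p = 0.154) and without CON replicate 2 (0.17, limma adjusted p = 0.0558).

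Insig1 encodes an anchor that keeps SCAP and SREBP-2 in the endoplasmic reticulum when sterol is rich. The gene itself is an SREBP-2 target, activated when sterol is scarce. It was at 8.20, 7.12, 7.42, 8.17 and 6.65 FPKM in CON and at 12.4, 9.41, 10.4, 11.3 and 9.17 FPKM in HG. Every HG library was above every CON library. Insig1 rose by 0.48 on the log2 scale (SE 0.0884, limma adjusted p = 0.00117), with means of 7.51 ± 0.674 and 10.5 ± 1.33 FPKM (SD, n = 5).

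By level per length, the order in CON was Fdps, Hmgcs1, Sqle, Srebf2, Fdft1, Idi1, Insig1 and Dhcr7. The ranges of Sqle, Srebf2 and Fdft1 overlapped one another, as did those of Insig1 and Dhcr7, so their places within CON were not separated by the spread of the libraries. In HG the order was Fdps, Hmgcs1, Fdft1, Sqle, Srebf2, Idi1, Insig1 and Dhcr7. Fdft1 had moved ahead of Sqle and Srebf2, but its HG range overlapped those of Sqle, Srebf2 and Hmgcs1. Fdps was above all other members in every library of both groups.

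The number of calls depended on the scaling. Of all called genes 70.7% were higher in HG with FPKM as deposited, 47.1% with median-of-ratios factors and 53.0% with quantile normalization. Over the 14542 genes tested, 4127 were called higher and 1709 lower with FPKM as deposited. These counts were 2271 and 2551 with median-of-ratios factors, and 2615 and 2317 with quantile normalization. The lists below are to be read beside this shift toward lower calls. With median-of-ratios factors 6 of the 8 genes were called higher, all but Hmgcs1 and Srebf2, where 15.6% of all genes were. With quantile normalization 7 of 8 were, all but Srebf2, where 18.0% of all genes were. The log2 fold change of each of the 8 genes was above 0 in all 23 alternatives, and Sqle, Fdft1, Fdps, Idi1, Insig1 and Dhcr7 were called in all 23. The ratio of mean FPKM, which is among the 23, keeps the adjusted p of the main fit, so no call could change there. Another of the 23 was a fit with the mean of the Y chromosome genes as a covariate, since 2 libraries of each group carried Y transcripts (summed level of 38.0 to 44.4 FPKM) and the others had at most 0.961 FPKM.

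The 8 genes also varied together around their group means. After each group mean was subtracted from log2(FPKM + 0.1), Pearson's r over the 10 libraries was above 0 in 28 of 28 pairs of genes and above 0.5 in 23, with a median of 0.67. The closest pair was Fdft1 and Insig1 (r = 0.90) and the loosest Idi1 and Srebf2 (r = 0.10). These values describe 10 libraries that share the same scaling and depth, and they carry no test. Pairs of other genes were not counted in this way, so no share over all genes stands beside these counts.

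Some libraries stood high or low in most of the 8 genes. In HG replicate 1 all 8 genes were above their group mean and 5 were the highest of the group, by a median deviation of 0.18 on the log2 scale. HG replicate 2 had 0 of 8 above the group mean and the lowest value of the group in 4, with a median deviation of -0.17. HG replicate 5 held the lowest value in the other 4. In the CON group, replicate 1 was highest in 5 genes and replicate 3 was below the group mean in all 8 and lowest in 5. CON deviations were smaller, with medians between -0.10 and 0.09.

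**Figure D2:**
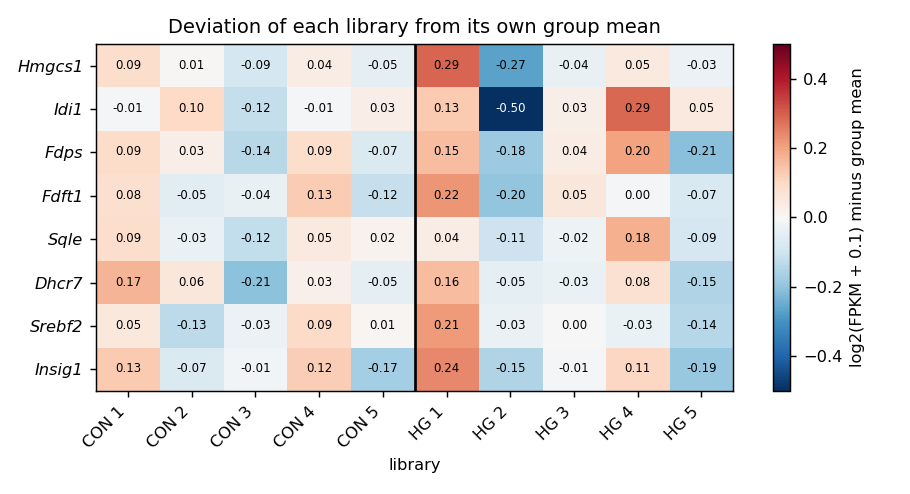
Deviation of each library from its own group mean for the 8 genes (rows, in pathway order and then the regulators, log2(FPKM + 0.1)), with the 10 libraries as columns, CON left of the black line and HG right of it. Red cells are above and blue cells below the group mean, and the columns of HG replicate 1 (all 8 above) and HG replicate 2 (all 8 below) stand out, with Idi1 in HG replicate 2 the largest deviation at -0.50.

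Over the 11701 other tested genes whose mean level was 1 FPKM or more, the genes closest to the mean within-group pattern of the 8 were Afg1l (r = 0.94), Ppa1 (0.93), Hccs (0.90), Sdr39u1 (0.90), Cyp51 (0.89), Ndufaf7 (0.89), Anln (0.88) and Pdgfb (0.88), each over 10 libraries. Ppa1 encodes an inorganic pyrophosphatase and Hccs the enzyme that attaches heme to cytochromes c. Their group differences went several ways: Hccs fell by 0.39 (limma adjusted p = 5.95e-06), Anln rose by 0.41 (limma adjusted p = 0.000134), and Ppa1 differed by 0.04 (limma adjusted p = 0.624). The other enzymes of cholesterol synthesis had a median r of 0.57 with the pattern, against -0.05 over all genes, and 3 of 15, Cyp51 and Lss among them, were in the 100 closest.

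Along the whole synthesis pathway, 15 of 21 enzymes rose in HG and 2 fell, with a median log2 fold change of 0.31. The shares over all genes tested were 28.4% called higher and 11.8% called lower. With median-of-ratios factors 11 of 21 were called higher (median 0.22) and with quantile normalization 12 (median 0.23), and 2 were called lower in both. Of the 15 enzymes outside the 8 genes, 9 rose and 2 fell, with a median of 0.21, and under both rescalings 6 were called higher and 2 lower, with medians of 0.12 and 0.15. With the replicate number as a block 7 of these 15 were called in either direction, and with voom on recovered reads 8 rose and 0 fell. Of the 14542 genes tested, 2271 were called higher and 2551 lower with median-of-ratios factors, and 2615 and 2317 with quantile normalization. These counts were 3566 and 1530 with the replicate block, and 4233 and 1727 with voom. Acat2, which condenses acetyl-CoA at the entry, rose by 0.58 (SE 0.0787, limma adjusted p = 0.000156), although the table also lists the near-copy Acat2l1, between which reads could be split. Lss, which closes the sterol ring, rose by 0.47 (limma adjusted p = 0.000583) and Sc5d, a late desaturase, by 0.46 (limma adjusted p = 0.000291).

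Of the enzymes that lead from mevalonate to the substrate of Idi1, Mvk and Mvd were called lower. Mvk, the mevalonate kinase, fell by 0.14 on the log2 scale (16.4 ± 1.03 to 14.9 ± 0.547 FPKM, limma adjusted p = 0.0459), and Mvd, the mevalonate diphosphate decarboxylase, fell by 0.16 (16.8 ± 0.736 to 15.0 ± 1.22 FPKM, limma adjusted p = 0.0429). Both calls lie near the threshold: each was lost in 12 of 23 alternatives, with adjusted p of up to 0.0912 for Mvd and 0.108 for Mvk. With median-of-ratios factors the differences were larger, -0.25 for Mvd (limma adjusted p = 0.00884) and -0.23 for Mvk (limma adjusted p = 0.00569). Leaving out any single library but CON replicate 2 ended the call of Mvk, and leaving out any but CON replicate 2, HG replicate 1 or HG replicate 3 ended that of Mvd. Pmvk, the kinase between these enzymes, differed by 0.12 and was not called (limma adjusted p = 0.200). When the pathway was split into stages, a grouping chosen after the values were seen, the mevalonate stage had 5 of 8 enzymes higher and 2 lower, and the sterol stage 10 of 13 higher and 0 lower. In the sterol stage 7 of 13 were higher under both rescalings, against 4 of 8 in the mevalonate stage with median-of-ratios factors and 5 of 8 with quantile normalization, and the difference between the stages was not tested.

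Cyp51, the lanosterol demethylase and a known SREBP-2 target, was the exception within the sterol stage that stood nearest to 0. Its CON values were 29.1, 25.2, 25.7, 25.2 and 24.4 FPKM and its HG values 30.3, 22.9, 25.6, 27.7 and 23.2 FPKM. The HG libraries lay on both sides of the CON range. The difference was 0.00 on the log2 scale, with a 95% interval of -0.17 to 0.16 (limma adjusted p = 0.973), an interval that leaves out the increases fitted for Sqle or Fdft1. The ratio of Sqle to Cyp51, chosen after the values were seen and so given with no test, was 0.709 ± 0.0481 in CON and 0.881 ± 0.0680 in HG (SD, n = 5). Tm7sf2 and Ebp, the other enzymes of this stage that were not called, differed by 0.15 and 0.12.

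**Figure D3:**
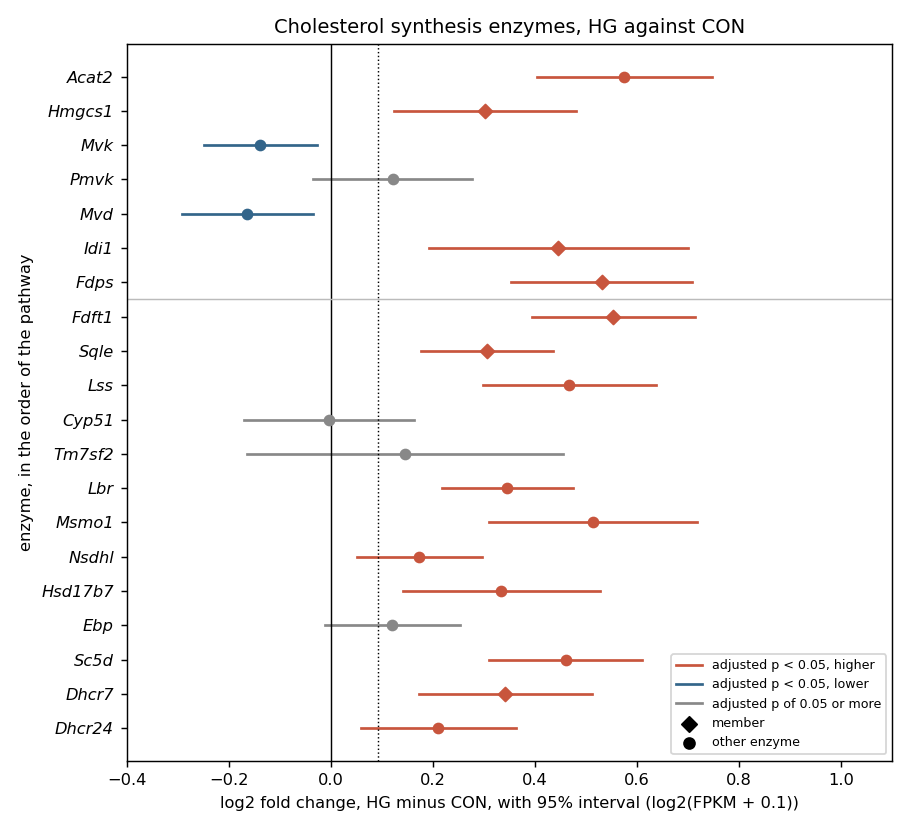
Log2 fold change (x axis, HG minus CON, log2(FPKM + 0.1)) with its 95% interval for 20 enzymes of cholesterol synthesis in the order of the pathway (y axis), with diamonds for the 6 enzymes among the 8 genes, the dotted line at the median of all genes tested (0.09) and the grey line between the mevalonate and the sterol stage. Most points lie right of 0, Mvk and Mvd lie left of it, and Cyp51 lies at 0.00.

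The pathways annotated in the deposited table group some of these enzymes with other genes, and were added after the values were seen. Of 18 tested genes of KEGG Steroid biosynthesis 11 rose and 0 fell, with a median of 0.26. Of 22 tested genes of KEGG Terpenoid backbone biosynthesis 7 rose and 5 fell, with a median of 0.09, which is that of all genes. Over all genes tested 28.4% were called higher and 11.8% lower. The Terpenoid counts turned to 4 higher and 7 lower with median-of-ratios factors and to 5 higher and 7 lower with quantile normalization. The Steroid counts were 8 higher and 0 lower under both. Over all genes tested the calls also shifted from higher to lower under both, as given above. Each set holds 3 of the 8 genes.

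Genes of cholesterol uptake and endosomal export moved in both directions. Of 14 tested, 6 rose and 1 fell, with a median of 0.14, and with median-of-ratios factors 6 rose and 3 fell. Among all genes tested 28.4% were called higher and 11.8% lower with FPKM as deposited, with a median of 0.09. With median-of-ratios factors 2271 of the 14542 genes tested were called higher and 2551 lower. Vldlr, the receptor for triglyceride-rich particles, fell by 0.38 (SE 0.0528, limma adjusted p = 0.000186), with no overlap of the groups.

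Npc2, which hands cholesterol over inside the lysosome, rose by 0.34 (limma adjusted p = 0.000159), Scarb1, the HDL receptor, by 0.43 (limma adjusted p = 0.000165) and Lrp1, a large scavenging receptor, by 0.37 (limma adjusted p = 0.000305). Stard4, a sterol carrier that is known to be induced through SREBP-2, was picked out after its values were seen: it went from 5.17 ± 0.299 to 9.93 ± 2.30 FPKM (SD, n = 5), a log2 fold change of 0.90 (SE 0.137, limma adjusted p = 0.000324). Stard4 was lowest of HG in replicates 1 and 3, at 7.71 and 7.14 FPKM, so its order of HG libraries was not that of the 8 genes.

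Among 12 genes of sterol sensing and SREBP processing, 4 rose and 0 fell, with a median of 0.12, and with median-of-ratios factors 2 rose and 1 fell. The count called higher with FPKM as deposited was near the share over all genes tested, 28.4%, while 11.8% of all genes were called lower. The median was near that of all genes, 0.09. With median-of-ratios factors 2271 of the 14542 genes tested were called higher and 2551 lower. Rnf145, a ubiquitin ligase known to act on SCAP, rose from 23.0 ± 1.82 to 34.1 ± 1.47 FPKM (SD, n = 5), by 0.57 on the log2 scale (limma adjusted p = 1.62e-05). Mbtps1, the site-1 protease that cuts SREBPs, rose by 0.24 (limma adjusted p = 0.000507). Ufd1, which helps extract proteins from the endoplasmic reticulum, rose by 0.15 (limma adjusted p = 0.00418), a call lost with median-of-ratios factors (0.06) and quantile normalization (0.09).

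Scap, Insig2 and Srebf1, named as defining genes of the circuit, were not called. Scap, the sterol sensor that escorts SREBPs, had means of 13.4 ± 1.32 and 13.6 ± 1.23 FPKM in the CON and HG groups (log2 fold change 0.01, 95% interval -0.15 to 0.18, limma adjusted p = 0.911). Insig2, the second INSIG gene, which in contrast to Insig1 is not induced by SREBPs, differed by -0.05 (95% interval -0.16 to 0.07, limma adjusted p = 0.528). Insig1 was below Insig2 in every CON library and above it in all HG libraries but replicate 2, with a ratio of 0.828 ± 0.0739 in CON and 1.20 ± 0.160 in HG (SD, n = 5), a pair chosen after its values were seen. Srebf1, the gene of the fatty acid regulator SREBP-1, differed by 0.13 (95% interval 0.001 to 0.25) and was not called (limma adjusted p = 0.0999). In Srebf1, 4 HG libraries were above every CON library and HG replicate 3 lay within the CON range. Without HG replicate 3 it was called (0.17, limma adjusted p = 0.0342). The ratio of Srebf2 to Srebf1, also chosen after the values were seen, was 2.88 ± 0.0960 in CON and 3.04 ± 0.278 in HG.

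Of 14 tested genes of sterol efflux, storage and oxysterols, 1 rose and 2 fell, with a median of 0.04 that turned to -0.04 with median-of-ratios factors. The shares of all genes tested were 28.4% called higher and 11.8% called lower. Soat1, which esterifies cholesterol for storage, rose by 0.39 (limma adjusted p = 6.08e-05). Abcg1, an exporter of sterol to HDL and a target of the oxysterol receptor LXR, fell by 0.63 (limma adjusted p = 0.000301), from 11.8 ± 0.994 to 7.66 ± 1.12 FPKM (SD, n = 5). Abca1, the other LXR-driven exporter, differed by 0.10 (95% interval -0.20 to 0.41, limma adjusted p = 0.602). Apoa1, the main HDL protein, was called lower (log2 fold change -1.81, limma adjusted p = 0.0484), but its CON values ran from 0.699 to 7.39 FPKM, with CON replicate 3 highest, and the call was lost in 15 of 23 alternatives (-1.23 without CON replicate 3, limma adjusted p = 0.0948).

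The fatty acid genes controlled by SREBP-1 were mixed: 6 of 14 rose and 2 fell, with a median of 0.16, and with median-of-ratios factors 5 rose and 4 fell. Among all genes tested 28.4% were called higher and 11.8% lower with FPKM as deposited. With median-of-ratios factors 2271 of the 14542 genes tested were called higher and 2551 lower. Fads2, a desaturase of polyunsaturated fatty acids, rose by 0.76 (limma adjusted p = 4.31e-06), Acly, which supplies cytosolic acetyl-CoA for both fatty acids and sterols, by 0.42 (limma adjusted p = 2.83e-05), Elovl6, an elongase, by 0.52 (limma adjusted p = 0.000204), and Fasn, the fatty acid synthase, by 0.35 (limma adjusted p = 0.000281). Acss2, which makes acetyl-CoA from acetate, fell by 0.39 (limma adjusted p = 0.000481), and Acacb, a muscle acetyl-CoA carboxylase, fell by 0.23 (limma adjusted p = 0.0204, or 0.0501 without CON replicate 5). Scd was low, with means of 0.597 and 0.806 FPKM, and was not called (limma adjusted p = 0.179).

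On the branches that use farnesyl diphosphate for products other than sterols, 3 of 12 genes rose and 2 fell, with a median of 0.05. Both counts were near the shares over all genes tested, 28.4% called higher and 11.8% lower. With median-of-ratios factors or quantile normalization 0 rose and 3 fell. Of the 14542 genes tested, 2271 were called higher and 2551 lower with the former, and 2615 and 2317 with the latter. Ggps1, which makes the geranylgeranyl donor for protein prenylation, rose by 0.36 (limma adjusted p = 0.0190), Coq2, an early enzyme of ubiquinone synthesis, by 0.16 (limma adjusted p = 0.0183) and Rabggta, which prenylates Rab proteins, by 0.19 (limma adjusted p = 0.0409). All 3 calls were lost under both rescalings, and that of Rabggta was lost in 13 of 23 alternatives in all. Dhdds and Nus1, the subunits that build dolichol, fell by 0.35 (limma adjusted p = 0.000532) and by 0.19 (limma adjusted p = 0.00350).

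**Figure D4:**
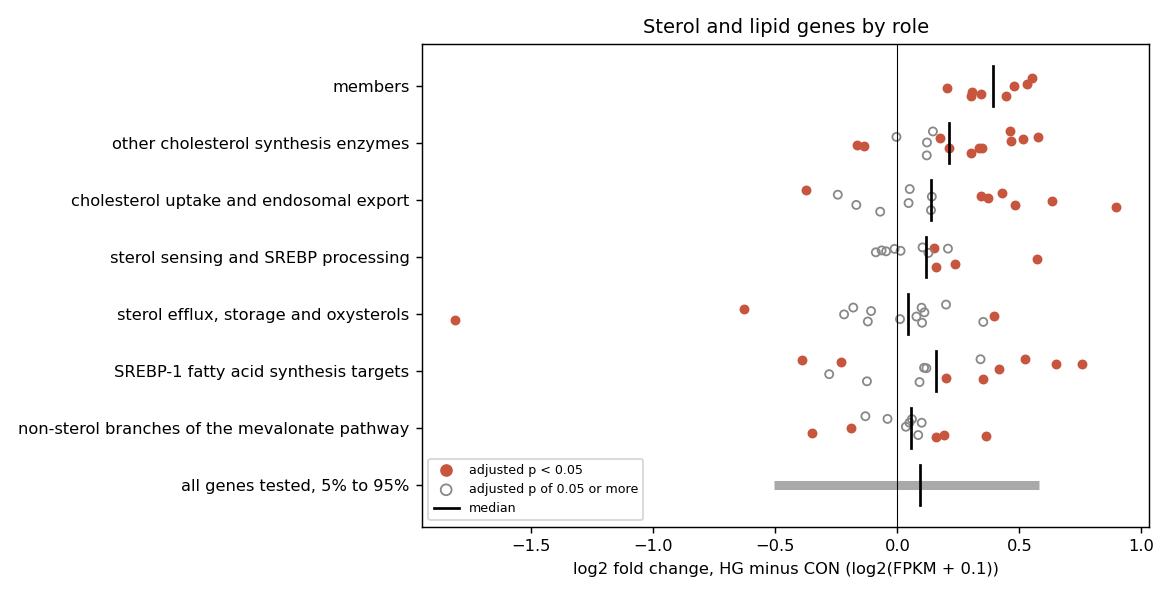
Log2 fold changes (x axis, HG minus CON, log2(FPKM + 0.1)) of each tested gene of the 8 genes (labelled members) and of the 6 lists around them (y axis), with filled points for called genes, open points for others, a bar at each median, and for all genes tested a grey band from the 5% to the 95% point. The 8 genes all lie right of 0 with a median of 0.39, while the lists for efflux and for the non-sterol branches have medians of 0.04 and 0.05.

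Markers of several cell types moved with the groups, and their part in the results above was not tested. All 8 cycling cell genes rose, with a summed level of 328 to 365 FPKM in CON and 469 to 522 FPKM in HG. Of 10 cardiomyocyte markers 1 rose and 8 fell, with sums of 27093 to 28410 FPKM in CON and 22847 to 26829 FPKM in HG. Of 5 smooth muscle markers 3 rose and 0 fell (681 to 802 against 912 to 1147 FPKM), and of 9 erythroid markers 2 rose and 6 fell (9939 to 18732 against 7887 to 11180 FPKM). For macrophages 3 of 8 rose and 2 fell (34.6 to 43.9 against 37.3 to 51.0 FPKM). Of 7 fibroblast markers 1 rose and 4 fell (1689 to 1976 against 1518 to 1747 FPKM). Of 7 endothelial markers 2 rose and 0 fell (266 to 288 against 274 to 300 FPKM). Of 3 tested glia and neuron markers 0 rose and 1 fell. Among all genes tested 28.4% were called higher and 11.8% lower.

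Markers of hepatocytes, steroidogenic cells and adipocytes were also checked. Hepatocyte markers summed to 6.42 to 93.3 FPKM in CON, where replicate 3 was the highest and the others reached 14.6 FPKM at most, and to 5.78 to 7.07 FPKM in HG, with 0 of 9 tested higher and 4 lower. Alb, the serum albumin, was at 34.9 FPKM in CON replicate 3 and at most 0.449 FPKM in HG. Without CON replicate 3 all 8 genes were still called higher. That count cannot show what hepatocyte RNA adds to any library, and its part in the levels of the 8 genes was not tested. Steroidogenic markers summed to 2.01 to 2.88 FPKM in CON and 1.34 to 2.00 FPKM in HG, with 0 of 3 tested higher and 2 lower. For adipocytes 3 of 3 tested markers (Fabp4, Cidea and Lipe) fell. The defining Adipoq was listed at 0 in every library but CON replicate 2, at 0.0737 FPKM. Whether the 3 markers stand for adipocytes here was not tested.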

How the data were processed

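Total RNA of fetal rat hearts was made into stranded mRNA libraries. The authors deposited FPKM, read numbers divided by gene length and library size. The submitters' processing notes name fastp, HISAT2, HTSeq, R 3.2.0 and the build mRatBN7.2. The study's methods compare groups with DESeq on counts, while a linear model was used here because the values are FPKM. All sample columns were used (0 unused).

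Reads were recovered as whole multiples of each gene's smallest step (tolerance 0.05 reads). Genes whose mean reached 0.1 FPKM were fitted as log2(FPKM + 0.1) with limma 3.58.1 (trend, no covariate) in R 4.3.3, with Benjamini-Hochberg adjustment over all genes tested. A DEG also had an absolute log2 fold change above 1. The fit was tested on simulated data. Tables and figures were made with Python 3.11.15, pandas 2.3.3 and matplotlib 3.10.9. Exact permutation tests are two-sided and cannot give a p below 0.00794.

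The 8 genes and the lists were chosen with earlier results of these data known. Named from each list were the 3 called genes of smallest adjusted p in each direction and 10 defining genes, of which 3 are not reported here. Genes most like the 8 were the 8 with the highest correlation to their mean z-score within groups. Others are said to be chosen after their values were seen. The same holds for Pmvk, Tm7sf2, Ebp and the ratio of Srebf2 to Srebf1, which these rules do not name.

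In 23 alternatives the libraries were rescaled (median-of-ratios, quantiles, or leaving out hemoglobin), the pseudocount was 1 or 0.01, the filter was dropped or raised to 1 FPKM, and the model had no trend, array weights, a replicate block or Y chromosome genes as covariate. Others used voom on recovered reads or the ratio of mean FPKM, or lacked 1 of the 10 libraries. The ratio of mean FPKM changed the fold change only and kept the p-values of the main fit. Its calls in the counts out of 23 therefore repeat those of the main fit. Replicate numbers are shared by the groups, but same-numbered libraries did not deviate together (r from -0.126 to 0.108), so they were not treated as pairs.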

Additional observations from a re-analysis of the deposited data

Results flagged for a closer look

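In 80 checks (40 genes in 2 groups of 5 libraries), 6 single libraries stood apart from their group by more than 0.71 of its range, a limit that chance passes in about 5% of groups. None of them belonged to the 8 genes. Cyp51 was highest in CON replicate 1 at 29.1 FPKM, with the next CON library at 25.7 FPKM. In CON replicate 3, Scarb1 (12.6 FPKM) and Apoa1 (7.39 FPKM) were above the rest of their group. Fads2 was highest in HG replicate 4 at 25.6 FPKM, Acss2 lowest in CON replicate 4 at 6.90 FPKM, and Coq2 lowest in HG replicate 5 at 21.7 FPKM. Hepatocyte markers were also highest in CON replicate 3, and whether this bears on its Apoa1 and Scarb1 values was not tested.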

How the results depend on the processing

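The 8 genes kept a positive difference under all 23 alternatives, and between 6 and 8 were called. With the replicate block all 8 were called, and the count of other synthesis enzymes was 7 instead of 11. In 0 of 5 cases was a CON library closest to the HG library of its own number. Genes of the non-sterol branches were called in 3 instead of 5 cases with median-of-ratios factors and in 3 with quantile normalization. Differences near 0 changed sign: Cyp51 was at 0.00842 with array weights, 0.00141 with the ratio of mean FPKM and -0.0619 to 0.0383 when a library was left out. Scap was at -0.00222 without hemoglobin genes, -0.0772 with median-of-ratios factors, -0.0683 with quantile normalization and -0.0221 to 0.0620 when a library was left out, and Abca1 at -0.0240 to 0.176 when a library was left out. None of these 3 genes was called in any setting, and the cause of the sign changes was not tested. Depth limits Soat2, which was below the filter.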
